A study of Mus musculus with 10 samples.

Results

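Polycomb complex genes encode the subunits of the Polycomb repressive complexes, and 9 of them were followed here through stem cells, progenitors and enterocytes of the mouse small intestine: Ezh1, Ezh2, Eed, Suz12, Rnf2, Cbx2, Cbx6, Cbx7 and Cbx8. A probe set counted for a gene when the platform annotation gave that gene as its only symbol, and the brightest one, by its mean of all 10 arrays, stood for the gene. All 9 genes were measured, through 23 of 20380 probe sets with 1 symbol, and they were 9 of 12393 genes in all. None of the 9 chosen probe sets lay near background in any group, which means within 1 log2 unit of the mean of the absent bacterial control TrpnX on every array of that group.

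Each of 5 groups held 2 Affymetrix mouse 430A 2.0 arrays of total RNA, all labelled C57BL/6 and all deposited as log2 expression values. ISC were Lgr5+ stem cells that GFP flow cytometry had purified from Lgr5-eGFP-Cre mice. Sec-Pro were crypt epithelium enriched for secretory progenitors, either by deletion of Rbpj, the DNA-binding partner of Notch (Rbpj Sec-Pro), or by giving mice dibenzazepine, a Notch inhibitor (DBZ Sec-Pro). Ent-Pro were crypts and ENT villi of Atoh1-/- mice, whose epithelium forms no secretory cells, so both carry that deletion and the other groups do not. Crypts were freed by EDTA after the villi had been removed by hand, and villus cells by a shorter EDTA incubation. The labels state neither age, dose, Cre driver and deleted exons nor whether a group's 2 arrays used different mice, so p-values may measure technical spread only.

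Polycomb repressive complex 2 (PRC2) methylates lysine 27 of histone H3 through the catalytic subunit Ezh2 or its paralog Ezh1, and Eed and Suz12 are needed for that activity. Canonical Polycomb repressive complex 1 (PRC1) binds this mark through a chromobox subunit, such as Cbx2, Cbx6, Cbx7 or Cbx8, and ubiquitinates histone H2A through Rnf2 (Ring1B) or Ring1. Across tissues Ezh2 is known as the form of dividing cells, which the intestine holds in its crypts, and Ezh1 as a form that non-dividing cells keep, and Polycomb proteins hold developmental regulators such as the Hox genes silent.

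Lgr5 and Atoh1 followed the labels, and markers of enterocytes did not set Sec-Pro apart from Ent-Pro. Lgr5 was 11.36 and 11.06 on the ISC arrays and between 6.31 and 8.80 on the other 8. Atoh1 was 5.75 and 5.78 in Ent-Pro, 4.97 and 5.18 in ENT and 7.68 and 7.80 in ISC, against 10.40 to 11.85 on the 4 Sec-Pro arrays. Not every stem cell marker set ISC apart from Ent-Pro: of 9 measured, 5 were lower in Ent-Pro and 4 were not called. All 9 measured secretory markers were lower in Ent-Pro and in ENT than in ISC, with Tff3 at 13.35 and 13.35 on the ISC arrays. Rbpj itself read 6.74 and 6.62 on the arrays of its own knockout and 8.26 and 8.31 after dibenzazepine, and it was also low in ENT, with a mean of 7.11 over its 2 arrays; whether its probes lie in the deleted part is not given in the sources used here. Of 8 enterocyte markers all were higher in Sec-Pro than in ISC and 0 were called between Sec-Pro and Ent-Pro; Fabp1, a fatty acid binding protein of enterocytes, was 14.59 and 14.52 in Rbpj Sec-Pro, 14.22 and 13.97 in DBZ Sec-Pro and 14.22 and 14.20 in Ent-Pro. Leukocyte markers were not equal between groups. Their mean over 17 genes was 5.54 and 5.72 in ISC, 6.22 and 6.14 in Ent-Pro and 7.25 and 7.40 in ENT, with 6.95 and 7.71 for DBZ and 8.20 and 6.63 for Rbpj Sec-Pro; of these markers 10 rose and 0 fell from ISC to Sec-Pro, and 10 rose and 1 fell from ISC to ENT. Ptprc, the pan-leukocyte marker, lay near background in ISC only, and the part of leukocyte RNA in the results below was not tested. In these bulk samples fewer cells of a type and less RNA per cell cannot be told apart.

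**Figure D1:**
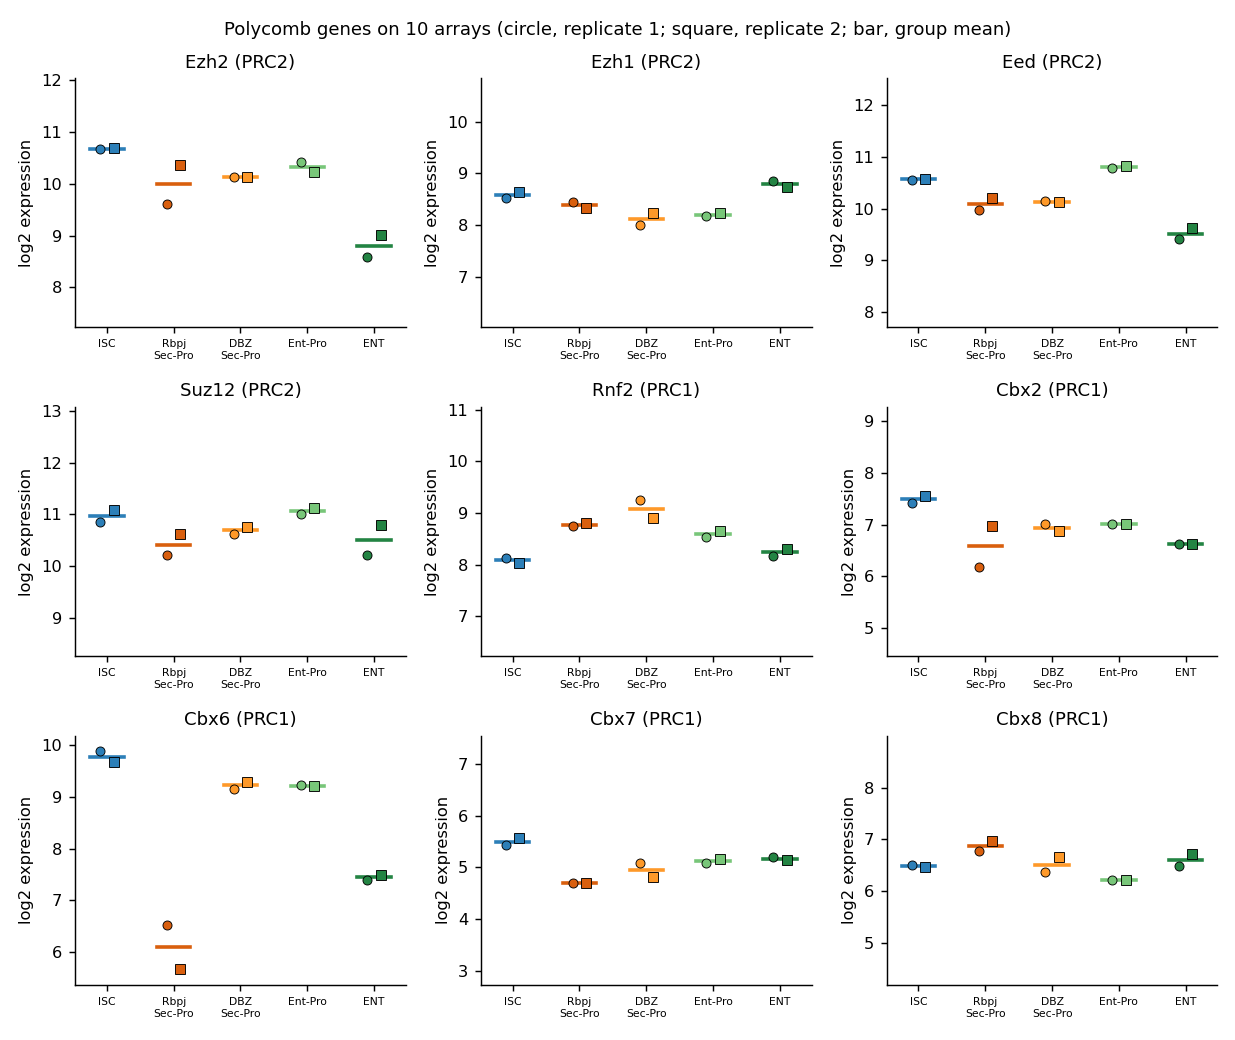
Log2 expression (y axis, the same span in every panel) of the 9 genes in the 5 groups (x axis); circles and squares are replicates 1 and 2 and the bar is the group mean. Ezh2, Eed and Cbx6 were lower in ENT than in Ent-Pro, Ezh1 was higher, and Cbx6 was at 6.53 and 5.67 for Rbpj against 9.16 and 9.29 for DBZ Sec-Pro.

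The counts differed by step. A gene was called when limma's moderated test, fitted over all 12393 genes and 10 arrays with Benjamini-Hochberg adjustment, gave an adjusted p under 0.05, and the 6 comparisons share arrays. From Ent-Pro to ENT 4 of the 9 genes were called, 1 higher and 3 lower, where 38.7% of all genes were called, 18.5% higher and 20.2% lower. From ISC to ENT 4 of 9 were called, all lower, where 49.2% of all genes were called, 22.3% higher and 26.8% lower. From ISC to Sec-Pro, taken as the mean of the DBZ and Rbpj groups, 7 of 9 were called, 1 higher and 6 lower, beside 45.2% of all genes, 18% higher and 27.2% lower. From ISC to Ent-Pro 1 of 9 was called, and it was higher, beside 25.5% of all genes, 12.1% higher and 13.5% lower. Between Sec-Pro and Ent-Pro 3 of 9 were called, 1 higher and 2 lower in Sec-Pro, beside 24% of all genes, 9.27% higher and 14.7% lower. Since Cbx6 was chosen for its difference between DBZ and Rbpj Sec-Pro, the other 8 genes were counted alone. Of them 6 were called from ISC to Sec-Pro, 1 higher and 5 lower, above the share of all genes. With ISC replicate 1 left out this was 3 of 8 beside 34.6% of all genes, and with ISC replicate 2 left out 2 of 8 beside 31.9%, near or below the share. With the DBZ arrays alone it was 4 of 8 beside 36.2%. The share of all genes also depends on level. Among genes above the median level, 5 of 6 members were called from ISC to Sec-Pro, Cbx6 included, beside 63.5% of such genes. The other counts lay near or below their shares. The 1 call from ISC to Ent-Pro was lost without either ISC or either Ent-Pro array, where 13.7% to 18% of all genes were called, and became 3 of 9 without either Rbpj array, beside 29.5%. Between Sec-Pro and Ent-Pro 2 of the 8 genes other than Cbx6 were called, 1 higher and 1 lower, beside 24% of all genes. This count too moved when single arrays were left out.

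**Figure D2:**
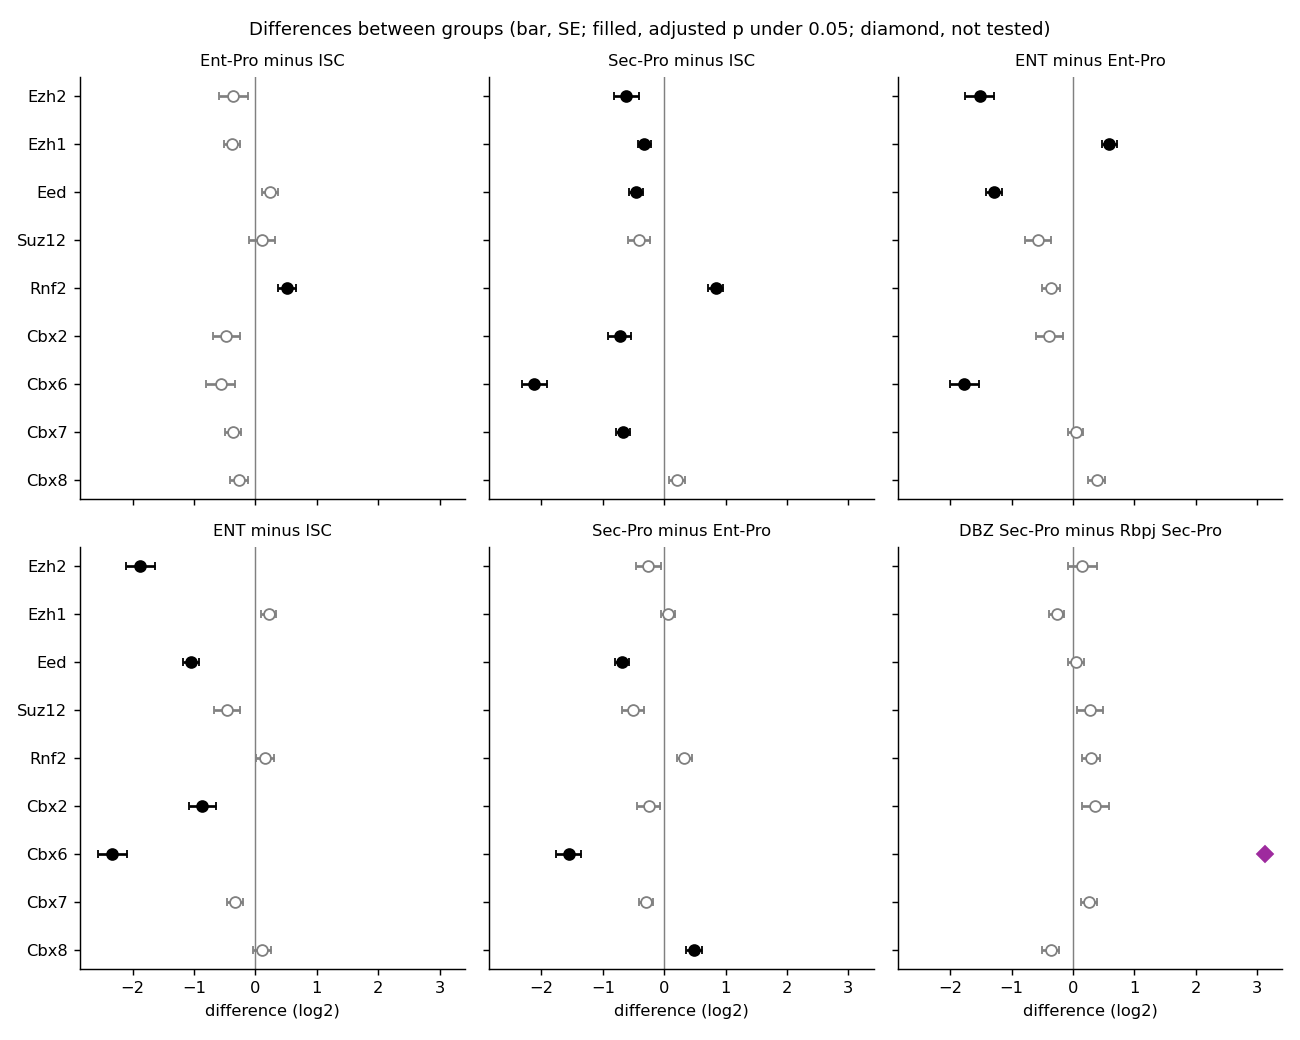
Difference between group means (x axis, log2) of each gene (y axis) in the 6 comparisons; bars are the SE of the limma fit, filled points have an adjusted p under 0.05, open points do not, and the diamond is the untested Cbx6 difference between DBZ and Rbpj Sec-Pro. ENT minus Ent-Pro shows Ezh2 at -1.52, Eed at -1.29 and Cbx6 at -1.77 against Ezh1 at 0.59.

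Ezh2 and Ezh1, the alternative catalytic subunits of PRC2, moved in opposite directions from crypt to villus. Ezh2 was 10.68 and 10.68 on the ISC arrays, 10.41 and 10.23 on the Ent-Pro arrays and 8.59 and 9.02 on the ENT arrays, with 10.14 and 10.14 for DBZ and 9.61 and 10.37 for Rbpj Sec-Pro. Every ENT array lay below every other array. From Ent-Pro to ENT Ezh2 fell by 1.52 on the log2 scale (2.86-fold, SE 0.24, limma adjusted p = 0.00107) and lay 3.67-fold lower in ENT than in ISC (adjusted p = 0.000183). In the order of levels, ISC, Ent-Pro, DBZ Sec-Pro, Rbpj Sec-Pro and ENT, only the last neighbouring pair differed by the test, and the smallest difference to ENT, from Rbpj Sec-Pro, was -1.18 (adjusted p = 0.0058). From ISC to Sec-Pro Ezh2 fell by 0.62 (SE 0.21, adjusted p = 0.0367), a call that was lost without either ISC, either DBZ Sec-Pro or either Ent-Pro array and with DBZ alone (adjusted p = 0.109). Rbpj Sec-Pro replicate 1 lay lower than its partner by 0.77, the widest gap between 2 arrays of a group for this gene.

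Ezh1 read 8.52 and 8.64 on the ISC arrays, 8.16 and 8.23 on the Ent-Pro arrays and 8.86 and 8.73 on the ENT arrays, with 8.01 and 8.24 for DBZ and 8.45 and 8.33 for Rbpj Sec-Pro. Here the ENT arrays were the highest of all 10. Ezh1 rose from Ent-Pro to ENT by 0.59 (1.51-fold, SE 0.13, adjusted p = 0.00566), and ENT was also higher than both Sec-Pro groups, by 0.40 over Rbpj Sec-Pro and 0.67 over DBZ Sec-Pro. ENT and ISC, the highest groups, differed by 0.21 (SE 0.13, adjusted p = 0.21; 0.46 and an adjusted p of 0.0173 after centring arrays on their medians), and the other 3 groups were not told apart. A dimmer Ezh1 probe set, 1418290_a_at, gave the same direction from Ent-Pro to ENT, a difference of 0.84 (adjusted p = 0.0103 over all probe sets), but put ENT at -0.44 against ISC (adjusted p = 0.104). That probe set was also lower than ISC in Ent-Pro, at -1.28 (adjusted p = 0.0023), and in Sec-Pro, at -0.93 (adjusted p = 0.00252). The probe set used for Ezh1 gave -0.38 from ISC to Ent-Pro (adjusted p = 0.0588, and 0.0482 with only the groups compared). The difference of -0.32 between Sec-Pro and ISC (adjusted p = 0.0409) was lost in 8 of the 10 fits that leave out 1 array, all but those without Rbpj Sec-Pro replicate 1 or DBZ Sec-Pro replicate 2, with Rbpj alone (adjusted p = 0.254), and under both other scalings, where it was -0.27 after centring and -0.11 after cyclic loess.

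The promoters of both catalytic subunits are shown because their transcripts moved apart, and that of Suz12 because it shares a motif word with Ezh2. Each window runs from 250 bases before the RefSeq start (GRCm38.p6) to 50 bases after it, on the gene's strand: Ezh2 at chr6:47594981-47595280 (minus), Ezh1 at chr11:101226414-101226713 (minus) and Suz12 at chr11:79992856-79993155 (plus). Capitals mark an exact match, on either strand, to one of 4 E2F words, TTTCCCGC, TTTCGCGC, TTTGCCGC and TTTGGCGC; E2F factors are known to drive cell cycle genes.
Ezh2: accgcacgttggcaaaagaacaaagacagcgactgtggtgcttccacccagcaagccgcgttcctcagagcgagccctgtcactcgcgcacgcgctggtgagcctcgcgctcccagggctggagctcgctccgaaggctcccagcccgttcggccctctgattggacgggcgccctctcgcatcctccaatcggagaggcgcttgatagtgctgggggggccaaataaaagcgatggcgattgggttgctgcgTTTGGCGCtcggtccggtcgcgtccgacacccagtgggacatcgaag
Ezh1: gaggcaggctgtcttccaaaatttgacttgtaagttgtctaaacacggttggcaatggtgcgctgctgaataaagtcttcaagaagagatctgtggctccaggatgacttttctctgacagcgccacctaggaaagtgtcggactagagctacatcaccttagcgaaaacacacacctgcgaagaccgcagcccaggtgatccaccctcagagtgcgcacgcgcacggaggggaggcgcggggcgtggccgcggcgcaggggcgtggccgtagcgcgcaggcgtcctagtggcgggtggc
Suz12: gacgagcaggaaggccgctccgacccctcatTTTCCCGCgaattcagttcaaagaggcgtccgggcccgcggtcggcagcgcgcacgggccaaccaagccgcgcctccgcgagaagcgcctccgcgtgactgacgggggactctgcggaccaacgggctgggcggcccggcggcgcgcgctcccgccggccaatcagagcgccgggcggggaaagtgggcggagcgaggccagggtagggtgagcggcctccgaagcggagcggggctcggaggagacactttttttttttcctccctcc
The Ezh2 word spans bases 254 to 261 of its window, just past the start, and the Suz12 word bases 32 to 39. Of 8 Polycomb genes with an entry these were the 2 that held an E2F word, as did 744 of 32851 promoters of the same length (2.26%), and a match is a description, not a site. The windows held 31 CpG dinucleotides in Ezh2, 23 in Ezh1, 17 in Eed and 41 in Suz12, where the median over all promoters was 7.

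Eed, the PRC2 subunit that reads the methyl mark, was 10.56 and 10.58 on the ISC arrays, 10.78 and 10.82 on the Ent-Pro arrays and 9.41 and 9.62 on the ENT arrays, with 10.15 and 10.12 for DBZ and 9.97 and 10.20 for Rbpj Sec-Pro. Ent-Pro and ISC were the highest groups, the Sec-Pro arrays lay between, and ENT was below all others with no overlap. Eed fell by 1.29 from Ent-Pro to ENT (2.44-fold, SE 0.13, adjusted p = 0.000121) and was 2.07-fold lower in ENT than in ISC (adjusted p = 0.000142). Eed also differed between the crypt preparations: Sec-Pro was lower than Ent-Pro, at -0.69 on the log2 scale (SE 0.11, adjusted p = 0.00348). Each Sec-Pro group on its own passed, DBZ at -0.67 and Rbpj at -0.72. Of these crypts only Ent-Pro carry the Atoh1 deletion and only Sec-Pro had Notch blocked, so branch, genotype and treatment cannot be told apart. From ISC to Sec-Pro Eed fell by 0.46 (adjusted p = 0.00865; 0.0549 without ISC replicate 2), while Ent-Pro and ISC were not told apart (difference 0.23, adjusted p = 0.237). These calls rest on the bright probe set: a dim one, 1453830_at, between 3.90 and 5.17, gave -0.31 from Ent-Pro to ENT (adjusted p = 0.332) and -0.30 between Sec-Pro and Ent-Pro (adjusted p = 0.31), and put Ent-Pro at -0.36 against ISC (adjusted p = 0.301). From ISC to Sec-Pro and to ENT it was lower by the test, at -0.66 and -0.68.

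Suz12, the PRC2 scaffold, passed in none of the comparisons with its brightest probe set in the main fit over all 10 arrays. Once a term for the replicate number was added to the fit, Sec-Pro and ENT were each called lower than ISC and lower than Ent-Pro. The probe set read 10.84 and 11.09 on the ISC arrays, 11.00 and 11.12 on the Ent-Pro arrays and 10.21 and 10.79 on the ENT arrays, with 10.62 and 10.76 for DBZ and 10.21 and 10.62 for Rbpj Sec-Pro. Ent-Pro overlapped ISC, and ENT overlapped both Sec-Pro groups. The difference of -0.56 from Ent-Pro to ENT (adjusted p = 0.0645) passed without ENT replicate 2 (-0.85, adjusted p = 0.0171) or either Rbpj array (adjusted p = 0.0442), and that of -0.46 from ISC to ENT (adjusted p = 0.101) without ENT replicate 2 (-0.75, adjusted p = 0.0204). The differences of Sec-Pro from Ent-Pro, -0.51 (adjusted p = 0.0741), and from ISC, -0.41 (adjusted p = 0.0977), both passed without Rbpj Sec-Pro replicate 2, and the former also without either ENT array (adjusted p = 0.0434) and after centring (adjusted p = 0.0429). The 6 Suz12 probe sets disagreed about ISC. Probe sets 1427253_s_at and 1452364_at were higher in Ent-Pro than in ISC by 1.14 and 1.35 (adjusted p = 0.00289 and 0.00212), and 1449661_at was lower, at -0.82 (adjusted p = 0.0297). From ISC to ENT the same probe sets differed by 0.66, 0.79 and -1.07, all past the threshold, so the direction of Suz12 against ISC is not settled by these arrays. From Ent-Pro to ENT 5 of the 6 probe sets were lower and 1420020_at was higher by 0.04, and none passed.

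**Figure D3:**
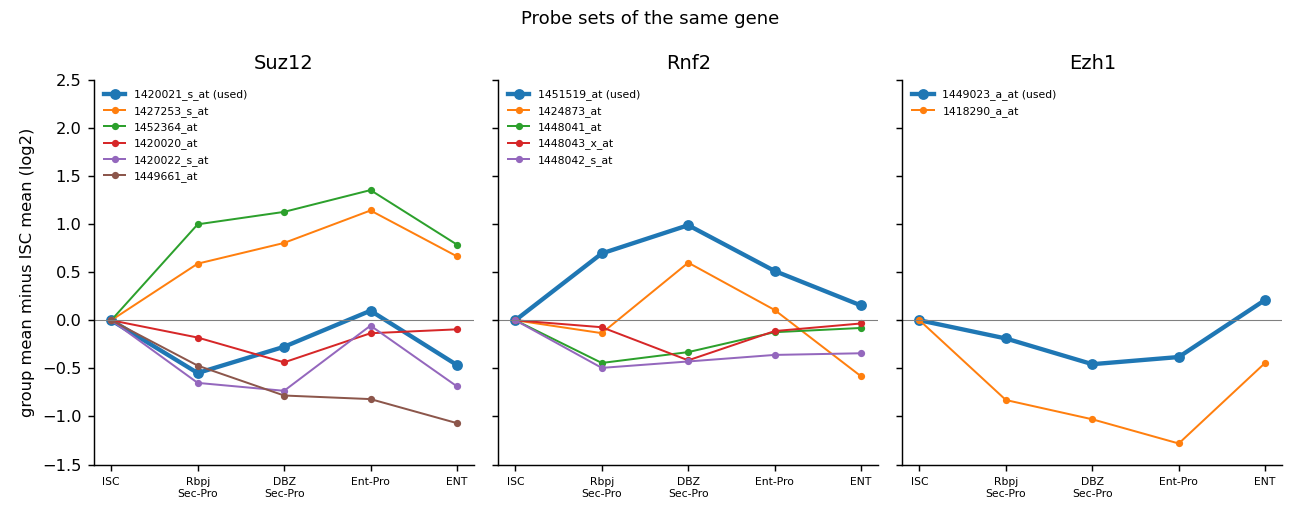
Group mean minus ISC mean (y axis, log2) of every probe set of Suz12, Rnf2 and Ezh1 in the 5 groups (x axis); the thick line is the probe set used for the gene, and the lines join the groups of one probe set only to guide the eye. Suz12 probe sets 1427253_s_at and 1452364_at lie above 0 in every group where 1449661_at lies below it, and the brightest Rnf2 probe set rises in Sec-Pro where 3 dim ones do not.

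Rnf2, the E3 ubiquitin ligase of PRC1, was the one member higher in Sec-Pro than in ISC by the test. It read 8.13 and 8.04 on the ISC arrays, 8.55 and 8.65 on the Ent-Pro arrays and 8.16 and 8.31 on the ENT arrays, with 9.25 and 8.89 for DBZ and 8.75 and 8.80 for Rbpj Sec-Pro. The 4 Sec-Pro arrays lay above all ISC, Ent-Pro and ENT arrays. The rise from ISC to Sec-Pro was 0.84 (1.79-fold, SE 0.12, adjusted p = 0.000668), and it passed with DBZ alone (0.99) and Rbpj alone (0.69). The smaller rise from ISC to Ent-Pro, 0.51 (SE 0.14, adjusted p = 0.0285), was lost without either ISC or either Ent-Pro array. These rises rest on probe set 1451519_at. The nearly as bright 1424873_at differed by 0.23 between Sec-Pro and ISC (adjusted p = 0.241), and the 3 dim ones, with means between 4.62 and 5.06, were at -0.39, -0.24 and -0.46 (adjusted p = 0.0431, 0.154 and 0.0315). Probe set 1424873_at in turn was lower in ENT than in Ent-Pro, at -0.69 (adjusted p = 0.0127), where the brightest gave -0.36 (adjusted p = 0.0794; 0.0496 without either DBZ array).

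Cbx6 was the chromobox subunit with the largest fall toward the villus. It was 9.88 and 9.68 on the ISC arrays, 9.23 and 9.20 on the Ent-Pro arrays and 7.40 and 7.49 on the ENT arrays, with 9.16 and 9.29 for DBZ and 6.53 and 5.67 for Rbpj Sec-Pro. The arrays of ISC, DBZ Sec-Pro and Ent-Pro sat between 9.16 and 9.88, ENT lay well below them, and both Rbpj Sec-Pro arrays were lower still and apart from each other by 0.86. From Ent-Pro to ENT Cbx6 fell by 1.77 (3.41-fold, SE 0.24, adjusted p = 0.000474), and it was 5.04-fold lower in ENT than in ISC (adjusted p = 5.51e-05). The difference of 3.13 between DBZ and Rbpj Sec-Pro (8.73-fold) was known when the genes were chosen and has no test here; beside it, DBZ Sec-Pro and Ent-Pro differed by 0.00714 (SE 0.24, adjusted p = 0.989), and DBZ Sec-Pro minus ISC was -0.56 (adjusted p = 0.101). Cbx6 is counted above among the genes lower in Sec-Pro than in ISC and in Ent-Pro, but those values, -2.12 and -1.56, average the 2 Sec-Pro groups and rest on the Rbpj arrays, whose own differences were -3.68 and -3.12.

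The Cbx6 promoter is shown because its gene was chosen for its difference between the 2 Sec-Pro groups, at chr15:79834284-79834583 (minus strand, GRCm38.p6, RefSeq), with no E2F word and therefore no capitals.
Cbx6: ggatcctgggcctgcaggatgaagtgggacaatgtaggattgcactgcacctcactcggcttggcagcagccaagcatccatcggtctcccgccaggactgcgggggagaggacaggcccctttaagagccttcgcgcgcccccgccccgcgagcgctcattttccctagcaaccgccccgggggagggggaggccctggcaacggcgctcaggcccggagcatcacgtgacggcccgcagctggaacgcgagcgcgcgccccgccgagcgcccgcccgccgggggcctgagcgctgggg
Neither of the RBPJ words GTGGGAA and ATGGGAA stood in this window on either strand, nor in that of the other 7 Polycomb genes with an entry, where 11.2% of all promoters held one; this says only that these letters are not in these windows. The window had 31 CpG dinucleotides. Cbx6 has 1 probe set, and RefSeq places the gene Npcd over it, so signal from that gene cannot be told apart.

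Cbx2 and Cbx7 were lower in Sec-Pro than in ISC, and Cbx8 was not. Cbx2 read 7.43 and 7.55 on the ISC arrays, 7.01 and 7.02 on the Ent-Pro arrays and 6.62 and 6.63 on the ENT arrays, with 7.01 and 6.88 for DBZ and 6.18 and 6.97 for Rbpj Sec-Pro. Both ISC arrays were above the other 8. The difference was -0.73 from ISC to Sec-Pro (SE 0.19, adjusted p = 0.0128; lost without either ISC array, with DBZ alone, adjusted p = 0.0847, and after cyclic loess, -0.50 with an adjusted p of 0.0583) and -0.86 from ISC to ENT (SE 0.22, adjusted p = 0.00964; 0.058 without ISC replicate 2). Without either Rbpj array Cbx2 was also called lower in Ent-Pro than in ISC (-0.48, adjusted p = 0.0139, against 0.157 over all arrays) and in ENT than in Ent-Pro (-0.39, adjusted p = 0.0238, against 0.21). The second Cbx2 probe set, 1422059_at, agreed in direction. It was at -0.50 from ISC to Sec-Pro (adjusted p = 0.0145) and at -0.37 from ISC to ENT (adjusted p = 0.0792). From ISC to Ent-Pro it was at -0.12 (adjusted p = 0.649) and from Ent-Pro to ENT at -0.25 (adjusted p = 0.259).

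Cbx7 was dim, at 5.43 and 5.57 on the ISC arrays, 5.09 and 5.16 on the Ent-Pro arrays and 5.19 and 5.15 on the ENT arrays, with 5.09 and 4.82 for DBZ and 4.70 and 4.70 for Rbpj Sec-Pro. ISC was again the highest group without overlap. The difference of Sec-Pro from ISC, -0.67 (SE 0.11, adjusted p = 0.00124), held with each array left out in turn and in both Sec-Pro groups alone, at -0.54 for DBZ and -0.80 for Rbpj. The values of ENT and Ent-Pro differed by 0.04 (SE 0.13), and ENT was -0.33 from ISC (adjusted p = 0.06; 0.0468 without either DBZ array). The second Cbx7 probe set, 1449713_at, was near background on all 10 arrays, and RefSeq places Apobec3 over Cbx7.

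Cbx8, a further chromobox subunit of canonical PRC1, read 6.50 and 6.47 on the ISC arrays, 6.22 and 6.21 on the Ent-Pro arrays and 6.48 and 6.72 on the ENT arrays, with 6.36 and 6.66 for DBZ and 6.78 and 6.97 for Rbpj Sec-Pro. Both Ent-Pro arrays were the lowest and both Rbpj Sec-Pro arrays the highest, and the other 3 groups overlapped. Cbx8 was higher in Sec-Pro than in Ent-Pro by 0.48 (SE 0.13, adjusted p = 0.0266), a call lost without DBZ Sec-Pro replicate 2 or either Ent-Pro array, and carried by Rbpj (0.66, adjusted p = 0.0147) rather than DBZ alone (0.30, adjusted p = 0.199). A dimmer probe set, 1419199_at, gave a difference of 0.05 (adjusted p = 0.812). Against ISC the Sec-Pro difference was 0.21 (adjusted p = 0.206), but 0.42 after cyclic loess (adjusted p = 0.0271). ENT differed from Ent-Pro by 0.38 (adjusted p = 0.0684), and by 0.51 after centring arrays on their medians (adjusted p = 0.0161).

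Between the 2 ways of blocking Notch, the 8 genes other than Cbx6 gave no call, beside 16.4% of all genes. Their differences, DBZ minus Rbpj, ran from -0.37 in Cbx8 to 0.37 in Cbx2, with 95% intervals of 0.29 to 0.54 either way, and 1 of the 8, Cbx8, had an unadjusted p under 0.05 (adjusted p = 0.118, the lowest of the 8). Over all 10 arrays 1 Rnf2 probe set that did not represent the gene, 1424873_at, differed by 0.73 (adjusted p = 0.0266). With Rbpj Sec-Pro replicate 2 left out, Cbx2 was called, 0.76 higher in DBZ Sec-Pro (adjusted p = 0.00801), where 22.1% of all genes were called; that fit sets DBZ against a single Rbpj array, assumed to vary like the other groups, and without replicate 1 the difference was -0.030. Rbpj Sec-Pro replicate 1, the array with the highest leukocyte mean, 8.20, was the lower of its pair for Ezh2, Eed, Suz12, Rnf2, Cbx2 and Cbx8 and the higher for Ezh1, Cbx6 and Cbx7; the part of those cells was not tested.

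Other subunits came from lists of 8 further PRC2 and 22 further PRC1 genes, of which 8 and 14 were measured, and are read against the 20.2% of all genes that were lower in ENT than in Ent-Pro. From Ent-Pro to ENT 4 of 8 PRC2 genes fell, led by the histone chaperone Rbbp7 (-1.37) and the accessory subunit Mtf2 (-1.17), and 1 rose, Epop (0.46), which was near background in all groups. Of the 14 measured PRC1 genes 8 fell and 0 rose, led by Kdm2b (-1.46), which brings a variant PRC1 to CpG islands, and Pcgf6 (-1.39). The median difference was -0.40 for the PRC2 and -0.70 for the PRC1 genes, against 0.02 over all genes. From ISC to ENT 4 PRC2 genes and 10 PRC1 genes fell and 0 rose in either list, where 26.8% of all genes were lower and 22.3% higher. Rbbp7 was at -1.46, Rbbp4 at -1.24, Scmh1 at -1.71 and Auts2 at -1.60.

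Against the stem cells the counts were as follows. Beside them, 12.1% of all genes were higher and 13.5% lower from ISC to Ent-Pro, and 18% and 27.2% from ISC to Sec-Pro. In Sec-Pro against Ent-Pro 9.27% of all genes were higher and 14.7% lower, and 16.4% differed either way between DBZ and Rbpj Sec-Pro. From ISC to Ent-Pro the PRC2 list had 1 gene higher, Aebp2 (0.57), and 2 lower, Jarid2 (-0.98), which helps PRC2 reach its targets, and Epop (-0.42, near background), and 4 PRC1 genes fell, among them Pcgf1 (-0.60) and Phc2 (-0.58). From ISC to Sec-Pro Jarid2 (-0.93) and Rbbp7 (-0.60) fell, 8 PRC1 genes fell, among them Auts2 (-0.90) and Scmh1 (-0.86, with overlapping arrays), and Yaf2 rose (0.74). Jarid2 was 10.82 and 10.85 in ISC and between 9.61 and 10.08 on all other arrays. Sec-Pro was lower than Ent-Pro in 2 PRC2 genes, Aebp2 (-0.65) and Rbbp7 (-0.50), and in 2 PRC1 genes, E2f6 (-0.75) and Pcgf6 (-0.56), and higher in Yaf2 (0.58). DBZ exceeded Rbpj Sec-Pro in 4 PRC1 genes and in 0 PRC2 genes, with Mga at 0.94 and Kdm2b at 0.72.

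Opponents and targets were read beside them. Among the 4 measured genes that remove Polycomb marks or belong to that machinery, Asxl1, a cofactor of the H2A deubiquitinase Bap1, fell from Ent-Pro to ENT (-1.22) and was the only one to pass there, and from ISC to Sec-Pro Bap1 (-0.81) and Asxl1 (-0.69) fell while Usp16 rose (0.74). Of the 3 HP1 chromobox genes, relatives of the Cbx subunits that bind another methyl mark, Cbx5 (-1.69) and Cbx1 (-1.12) fell from Ent-Pro to ENT. The Hox genes and Cdkn2a, classical Polycomb targets, stayed dim. Of 32 measured 14 were near background everywhere, the mean of the list lay between 4.69 and 4.92 on all 10 arrays, and from Ent-Pro to ENT, where Ezh2 and Eed fell, 1 rose, Hoxa3 (0.35), and 0 fell. From ISC to Sec-Pro 0 rose and 4 fell, with Hoxa4 (-0.39, near background in every group and with overlapping arrays) and Hoxc9 (-0.38) the largest, and the other two, Hoxa11 and Hoxd10, named after their values were seen, near background in every group. Hox genes were higher in 3 cases and lower in 0 in Sec-Pro against Ent-Pro, with Hoxb2 at 0.68 and Hoxb4 at 0.53. They were higher in 2 in ENT against ISC, Hoxc4 (0.54) and Hoxa3 (0.53), and in 6 in DBZ against Rbpj Sec-Pro, while Hoxa5 (-0.56) was lower in Ent-Pro than in ISC. Of all genes 18.5% rose from Ent-Pro to ENT, 27.2% fell from ISC to Sec-Pro and 9.27% were higher in Sec-Pro than in Ent-Pro. From ISC to ENT 22.3% rose and from ISC to Ent-Pro 13.5% fell. Except for DBZ against Rbpj Sec-Pro, where 16.4% of all genes differed either way, the counts of this list lay near or below these shares.

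Proliferation genes fell from Ent-Pro to ENT, as Ezh2 and Eed did, while in the crypt groups their levels followed Eed more than Ezh2. The mean of 23 such genes was 10.25 and 10.14 in ISC, 10.49 and 10.35 in Ent-Pro and 8.45 and 8.42 in ENT, with 9.53 and 9.63 for DBZ and 9.33 and 9.85 for Rbpj Sec-Pro. All 23 fell from Ent-Pro to ENT, with Bub1 at -3.02 and Mki67 at -2.90, and 15 fell from ISC to Sec-Pro. Like Eed, this mean was highest in Ent-Pro, and Ezh2 was highest in ISC, but neither Eed nor Ezh2 was called between these 2 groups. Of the 23 genes 4 were called higher and 1 lower in Ent-Pro than in ISC, and 18 were not called. Beside this, 12.1% of all genes were higher and 13.5% lower. The list also moved between crypt branches, where 21 of 23 genes were below their Ent-Pro level in Sec-Pro, as Eed was, while Ezh2 differed by -0.26 (adjusted p = 0.393; -0.45 and 0.0477 without Rbpj Sec-Pro replicate 2). The part of the share of dividing cells in the Polycomb values was not tested.

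**Figure D4:**
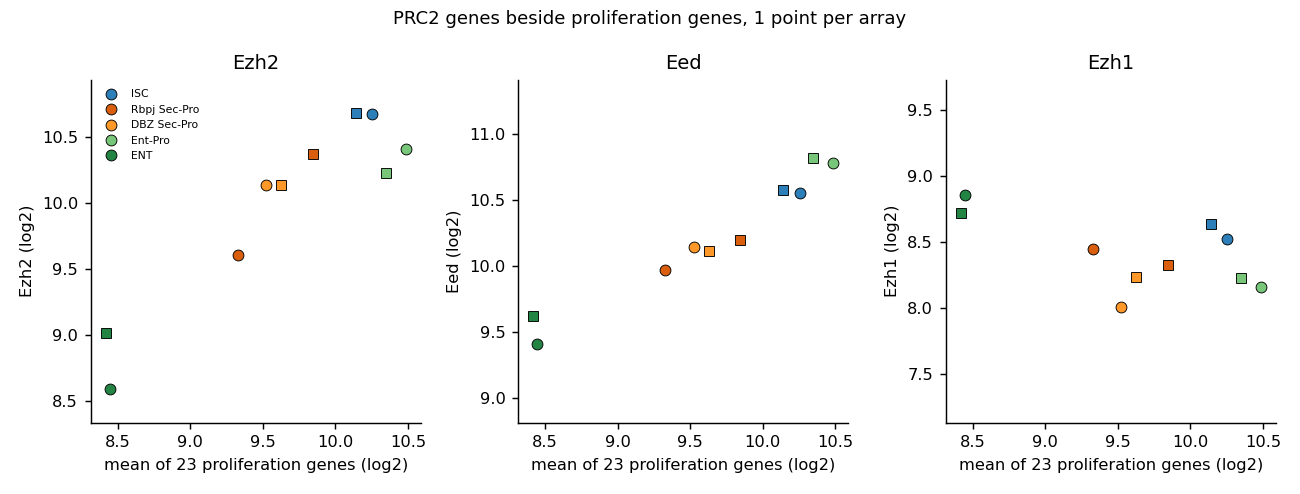
Log2 expression of Ezh2, Eed and Ezh1 (y axes) against the mean log2 value of the proliferation genes (x axis), 1 point per array, coloured by group, with circles and squares for replicates 1 and 2. The ENT arrays, at 8.45 and 8.42 on the x axis, hold the lowest Ezh2 and Eed values and the highest Ezh1 values.

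Genes with the most similar pattern were sought for the 3 members whose group means spanned at least 1 log2 unit, by the root mean square difference over 10 arrays after each gene was centred on its own mean. For Eed these were Hspa14 (0.0783), Ebna1bp2 (0.0974) and Setdb1 (0.113), and for Ezh2 Hnrnpa1 (0.128), Smc1a (0.129) and Denr (0.158). Cbx6 had no gene as close: the nearest were Apobec3 (0.683), Prss23 (0.723) and Ift27 (0.730). Apobec3 is the next gene to Cbx6 on chromosome 15, with 0 measured genes between them, and Ift27 lies on the same chromosome with 41 measured genes between. Apobec3 group means were 9.20 in ISC, 8.30 in Ent-Pro, 7.02 in ENT, 8.20 for DBZ and 6.84 for Rbpj Sec-Pro. It was low in the same groups as Cbx6, which follows largely from its choice by likeness to Cbx6 on these arrays.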

How the data were processed

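The series matrix holds 1 log2 expression value per probe set and array as deposited; RMA and MAS5 are named in the submitters' processing notes, without role or version. The deposited log2 values were used unchanged. Of 22690 probe sets, 20393 had 1 gene symbol in the platform annotation, 691 several and 1606 none; leaving out the control sets left 20380 probe sets of 12393 genes, and the brightest one by its mean of 10 arrays stood for its gene. limma 3.58.1 (R 4.3.3; lmFit, eBayes) fitted 5 group means to all 10 arrays, with 5 residual and 3.75 prior degrees of freedom and a Benjamini-Hochberg adjusted p of 0.05 over all genes as the threshold; adjusted p-values of single probe sets came from the same fit over 20380. The number of arrays, 2 a group, limits the precision. The fit was tested on simulated data first. Cbx6 was not tested between DBZ and Rbpj Sec-Pro. The members, lists and alternatives were chosen with earlier results of these data known. Named genes were all members, the 2 called genes with the largest difference per list, direction and comparison, the 3 genes nearest in pattern to each member whose group means spanned at least 1, and the label checks Lgr5, Atoh1, Rbpj, Mki67, Fabp1 and Ptprc. Of the marker lists, stem cell, secretory, enterocyte, leukocyte and stromal genes had 9, 9, 8, 17 and 17 measured; from ISC to Sec-Pro 0, 8, 8, 10 and 3 were higher and 8, 0, 0, 0 and 2 lower, and from Ent-Pro to ENT 0, 1, 6, 7 and 0 were higher and 6, 1, 0, 1 and 0 lower. Promoters came from RefSeq (GRCm38.p6), with entries for 8 of 9 members; the array files name no genome build. Alternatives changed the scaling, the probe set rule, a filter on dim genes, the variance trend, the replicate block, the arrays fitted and the Sec-Pro group used, and left out each array in turn.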

Additional observations from a re-analysis of the deposited data

Results flagged for a closer look

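DBZ and Rbpj Sec-Pro, the 2 ways of blocking Notch, differed by the test in 16.4% of all genes; among the measured genes listed beside the 9, these were 4 of 14 PRC1, 6 of 32 Hox and Cdkn2a, 1 of 3 HP1 and 1 of 23 proliferation genes and 0 of 8 PRC2 genes. The values given here are those of the 2 largest per list and direction and of 1 further probe set. Probe set 1424873_at of Rnf2, which did not represent the gene, was higher in DBZ Sec-Pro by 0.73. The PRC1 partners Mga and Kdm2b were higher by 0.94 and 0.72, and the HP1 gene Cbx1 by 0.67. Hoxa3 and Hoxa4 were higher by 0.62 and 0.58, with Hoxa4 near background in every group. Rrm2, a subunit of ribonucleotide reductase, was the 1 proliferation gene that differed, at -0.57. No group held enough arrays for a test of single outlying arrays.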

How the results depend on the processing

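The counts of called Polycomb genes that moved by over 1.5 times are given here, beside some that moved less or not at all. For Ent-Pro minus ISC, 1 call became 2 with the lowest probe set of each gene (21.3% of all genes called) or only genes above the median level (44.4%), 4 with only the groups compared (30.7%), and 0 to 3 with 1 array left out. For Sec-Pro minus ISC, 7 became 4 with DBZ alone (36.2%), and 3 to 7 with 1 array left out. ENT minus Ent-Pro gave 4 to 6 and ENT minus ISC 3 to 5 with 1 array left out; centring on array medians or cyclic loess gave 6 for the latter, against 4 (56.3% and 49.4%). For Sec-Pro minus Ent-Pro, 3 became 1 with the lowest probe set (18.6%), and 2 to 6 with 1 array left out. DBZ minus Rbpj stayed at 0 of 8, and at 0 to 1 with 1 array left out. Outside DBZ minus Rbpj these counts include Cbx6, which was the 1 call for Sec-Pro minus Ent-Pro with the lowest probe set. Direction turned where probe sets disagree. With the lowest probe set, Ent-Pro minus ISC became -0.36 in Eed, -0.82 in Suz12 and -0.36 in Rnf2; Sec-Pro minus ISC -0.46 in Rnf2; ENT minus Ent-Pro 0.017 in Rnf2; ENT minus ISC -0.44 in Ezh1 and -0.34 in Rnf2; Sec-Pro minus Ent-Pro -0.10 in Rnf2, 0.19 in Suz12 and 0.12 in Cbx7; and DBZ minus Rbpj -0.31 in Suz12. With the mean of the probe sets, Eed was -0.066 for Ent-Pro minus ISC, Rnf2 -0.00391 for Sec-Pro minus ISC, -0.18 for ENT minus ISC and -0.0085 for Sec-Pro minus Ent-Pro, Ezh1 -0.12 for ENT minus ISC, and Suz12 -0.00552 for DBZ minus Rbpj. Cyclic loess gave Cbx7 -0.024 for ENT minus Ent-Pro and Eed -0.00793 for DBZ minus Rbpj. For Sec-Pro minus Ent-Pro, Ezh1 was -0.00562 after centring and -0.075 with DBZ alone, and Cbx6 0.00714 with DBZ alone. With 1 array left out, DBZ minus Rbpj ran from -0.030 to 0.76 in Cbx2, -0.064 to 0.16 in Eed and -0.23 to 0.53 in Ezh2, Cbx8 in ENT minus ISC from -0.0071 to 0.23, and Suz12 in Ent-Pro minus ISC from -0.022 to 0.22. Over all genes, fits with 1 array left out called 13.7% to 29.5%, 31.9% to 48%, 26.8% to 42.1%, 41.8% to 52.4%, 7.29% to 30% and 2.93% to 22.1% in the order Ent-Pro minus ISC, Sec-Pro minus ISC, ENT minus Ent-Pro, ENT minus ISC, Sec-Pro minus Ent-Pro and DBZ minus Rbpj. The cause was not tested, beyond fewer arrays or genes where these were left out. Centring moved the median of all genes by 0.12, 0.13 and 0.25 in Ent-Pro minus ISC, ENT minus Ent-Pro and ENT minus ISC, and the share of calls that were higher from 47.3% to 59.9%, 47.8% to 58.3% and 45.4% to 62.9%; for Sec-Pro minus Ent-Pro that share went from 38.6% to 28.6%. Loess moved the median of Sec-Pro minus ISC by 0.13 and this share from 39.8% to 53.0%, and for Sec-Pro minus Ent-Pro the share to 54.3%. Same-numbered arrays did not deviate together over all genes (10 pairs of groups, r from -0.19 to 0.17, 1 above 0.1). With 2 arrays a group this cannot exclude that the numbers pair the samples, and Suz12 was higher on replicate 2 than on replicate 1 in every group. With the replicate block the counts, in that order, were 1, 7, 5, 5, 4 and 0, beside 24.1%, 43.4%, 37.2%, 47.8%, 21.1% and 13.8% of all genes. Suz12 was gained in the middle 4 and Ezh1 lost in Sec-Pro minus ISC. Probe sets between 4 and 6, such as those of Cbx7, lie close to the absent control (3.62 to 3.82), which limits what their small differences show.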

Other observations

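Apobec3, the gene next to Cbx6, also differed between DBZ and Rbpj Sec-Pro, by 1.36, and the genes around Cbx6 on chromosome 15 were therefore read in the same contrast, a choice made after the values were seen. Of the 20 nearest measured genes, 10 on each side, 6 were called, 5 higher and 1 lower in DBZ Sec-Pro. Beside this, 16.4% of all genes were called, 1158 of 12393 higher and 878 lower. The 6 include Apobec3, whose difference prompted this reading, so that call was known before the count was made. Their differences ran from -0.51 to 1.36, with a median of 0.23. Gtpbp1, a GTP-binding protein gene, was 8.66 and 9.06 after dibenzazepine and 7.65 and 7.73 without Rbpj, a difference of 1.17. Csnk1e, which encodes casein kinase 1 epsilon, differed by 1.04, Sun2, a nuclear envelope gene, by 0.63 and Pdgfb, a growth factor gene, by 0.55. Pdgfb was dim, at 4.76 and 4.76 on the DBZ arrays and at 4.22 and 4.21, near background, on the Rbpj arrays. Tomm22, of the mitochondrial import complex, went the other way, at -0.51. Cbx7, 1 measured gene beyond Apobec3, differed by 0.26 (limma adjusted p = 0.194).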
